A study of Mus musculus with 16 samples.

Results

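The livers of 13 old male C57BL/6 mice were examined for 10 genes of the antioxidant response, the transcription factor Nfe2l2 (NRF2) and the enzymes Nqo1, Gclc, Gclm, Txnrd1, Hmox1, Srxn1, Sod1, Sod2 and Cat. They were taken by name, as every probe whose platform symbol is 1 of these 10, out of 16593 genes on the array, and kept if at least 1 diet group had it detected (detection p-value below 0.05) on all of its arrays. Of 14 such probes 12 were kept, and they covered all 10 genes. The mice were bought at 104 weeks of age, spent a month on the purified AIN-93G diet and were then assigned at random to 3 diets for 17 weeks. The SD group (n = 4) stayed on AIN-93G, which is the standard diet and also the base of the other diets. The EOW group (n = 5) had 1% metformin, a biguanide drug against diabetes, mixed into AIN-93G in alternating weeks, and the 2WM group (n = 4) had the same 1% diet in 2 weeks running of every month. The comparisons ask whether intermittent metformin late in life was accompanied by other levels of these transcripts in the liver. Total RNA of whole liver was hybridised to Illumina BeadArrays, on which fewer cells of a type and less RNA per cell cannot be told apart.

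NRF2 is held in the cytosol and sent to the proteasome by KEAP1 while a cell is unstressed. Oxidants and electrophiles modify KEAP1, NRF2 then accumulates without any need for more of its own mRNA, pairs with a small MAF protein and binds antioxidant response elements near its target genes. Its classical targets make glutathione, reduce quinones, run the thioredoxin system and break down heme, whereas the superoxide dismutases and catalase are antioxidant enzymes that depend on other regulators as well. The liver, and the hepatocyte in particular, holds large amounts of glutathione and catalase.

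The core of the antioxidant response element, TGACNNNGC, was looked for on both strands of the RefSeq promoter windows of build GRCm38.p6, which run from 250 bases before a transcript start to 50 after it. No other motif was looked for. The 5 matches among these genes are shown because the core is the letter pattern through which NRF2 is known to bind. Capitals mark the core, each line is written 5′ to 3′ on the strand of the gene, and on the lines of Srxn1, Gclm, Txnrd1 and Sod1 the core lies on the opposite strand, so that its reverse complement is in capitals.
Nfe2l2: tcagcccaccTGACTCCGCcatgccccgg
Gclm: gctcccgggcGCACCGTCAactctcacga
Txnrd1: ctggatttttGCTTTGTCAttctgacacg
Srxn1: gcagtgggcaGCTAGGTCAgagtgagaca
Sod1: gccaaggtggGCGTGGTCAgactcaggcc
The stretch of Nfe2l2 is chr2:75704885-75704913 on the minus strand and its core begins at −240 from the transcript start. The stretch of Gclm is chr3:122245413-122245441 on the plus strand, with the core at −134. The gene's span begins at chr3:122245487, nearer to the core than that transcript start, so −134 is not counted from the gene's 5′ end. The stretch of Txnrd1 is chr10:82859104-82859132 on the plus strand, with the core at −92. It lies inside the gene's span of chr10:82833951-82897724, so the transcript start it precedes is not the gene's 5′ end. The stretch of Sod1 is chr16:90220696-90220724 on the plus strand, with the core at −56. The stretch of Srxn1 is chr2:152105542-152105570 on the plus strand, and its core begins at base 29 of the transcript. The table held 10 windows for 8 of the genes, and Nqo1, Sod2 and Cat had windows in which these letters were not found. Over all genes 4071 of 32851 windows, or 12.4%, held the core. A match describes letters and does not show a bound site.

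Median signal per array lay between 127.2 and 184.9 on the scanner's intensity scale, and 11457 to 12953 of 25697 probes per array were detected. There were 16 arrays for 13 mice, since mouse 1 of every diet had 2, and these were averaged. EOW mouse 4 stood apart, with correlations of 0.841 to 0.888 with the others across the 11143 probes tested, whereas the other 12 mice correlated with each other at 0.950 to 0.991. Its 1 array had the lowest median signal, 127.2. The highest signal on that array was 21981, against 28969 to 38915 on the other arrays, and the lowest was 67.3, against 92.8 to 125.3. Whether the array or the liver set this mouse apart was not tested. The summed T and NK cell markers of EOW mouse 4 were 136 on the linear scale against 5.11 to 8.95 in the other 12 mice, with 6 of 13 listed markers detected and neither Cd4 nor Cd8a among them. Hepatocyte markers were detected for 6 of 9 listed genes, Apoa1 and Ttr among them, while the probes of Alb, Tat and Fgb were not, and the summed level was 305 to 409 in SD, 296 to 541 in EOW and 347 to 449 in 2WM, the lowest value being that of EOW mouse 4. Neutrophil markers (3 of 8 detected) summed to 3.79 to 21.2 in 12 mice and to 28.6 in EOW mouse 4, sinusoidal endothelial markers (7 of 7) to 28.4 to 40.9, B and plasma cell markers (2 of 7) to 1.41 to 3.13 and cholangiocyte markers (1 of 5) to 0.629 to 0.947. Where leaving out EOW mouse 4 moved a difference between EOW and SD of the 10 genes by over 1.5 times or across the threshold, the value without it is given too.

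Levels are log2 signals relative to the mean of their own array, scaled to a common spread, so that a level of 0 is an average probe and background lies between −1.03 and −0.93. Levels of different probes cannot be set against each other, and differences between diets are on the log2 scale. Means are given ± the standard deviation over mice, since SD names the diet. The test was limma's moderated test with all 13 mice in 1 fit, and the p-values of the 11143 probes were adjusted by the Benjamini-Hochberg method. For each of the 12 probes an exact two-sided permutation test over mice was run in the 3 comparisons, 36 in all. The same permutation test was also run on the related genes named by rule further below, which had been picked for a small limma p. The smallest p this permutation test allows is 0.0159 with 5 against 4 mice and 0.0286 with 4 against 4. The SD mice enter both metformin comparisons, so these are not independent of each other.

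**Figure D1:**
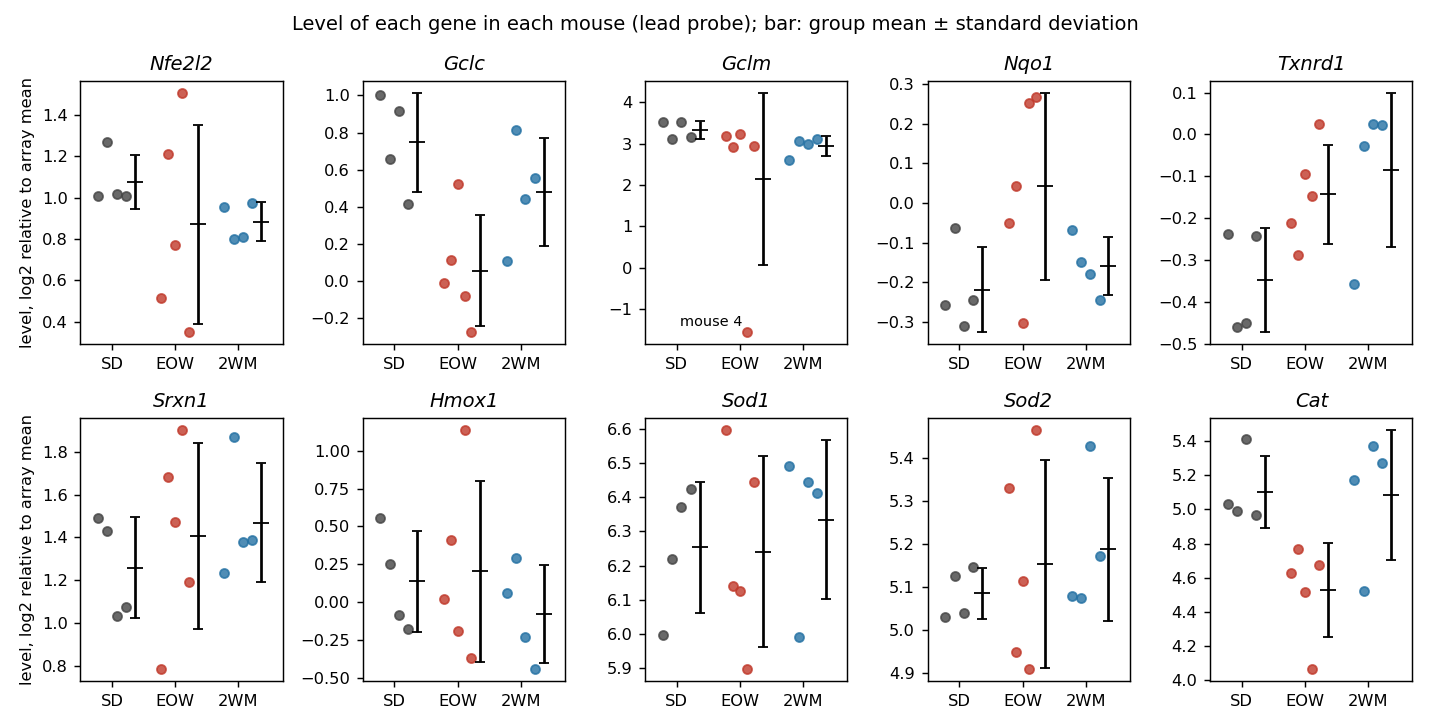
Level of each of the 10 genes (log2 relative to the array mean, vertical axis with its own range per gene) in each mouse of the SD, EOW and 2WM groups, with the group mean and standard deviation as a bar to the right. Cat was lower in the 5 EOW mice than in all 4 SD mice. Gclm of EOW mouse 4 lay at −1.55, below background, while the other 12 mice lay between 2.60 and 3.52.

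None of the 12 probes passed an adjusted p under 0.05 in any comparison, where the share of all probes called by limma was 0% in EOW against SD, in 2WM against SD, in EOW against 2WM and in the F test over the 3 diets. At an unadjusted p under 0.05 limma called 1542, 661 and 1188 probes in these 3 comparisons. By that rule Gclc and Cat were lower in EOW than in SD (2 of 12 probes, against 8.25% of all probes) and Nqo1 was higher (1 of 12, against 5.59%). Txnrd1 was higher in 2WM than in SD (1 of 12, against 2.23%) and no probe was lower (against 3.71%). Gclc and Cat were lower in EOW than in 2WM (2 of 12, against 5.4%) and none was higher (against 5.26%). The F test over the 3 diets called the same 2 genes, Gclc and Cat, against 11.9% of all probes.

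Leaving out EOW mouse 4 altered which genes met that rule. Nfe2l2 then joined Gclc and Cat among those lower in EOW than in SD (3 of 12, against 8.37%) and no probe was higher (against 5.64%). Txnrd1 stayed higher in 2WM than in SD (1 of 12, against 3.16%) and Gclm was lower (1 of 12, against 5.6%). Cat alone was lower in EOW than in 2WM (1 of 12, against 5.72%) and none was higher (against 5.3%).

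The criteria of the study's methods combine a false discovery rate of 0.3 for the difference in Z scores, a z-ratio beyond 1.5 and an analysis of variance across the diets. Computed on these mice, they held for 352 probes in EOW against SD (3.16%), among them Gclc and Cat. For EOW against 2WM they held for 308 probes (2.76%), again with Gclc and Cat, and in 2WM against SD for 289 probes (2.59%), none of them a probe of these 10 genes.

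The 10 genes did not share a direction. With the brightest probe per gene, 5 of 10 differences were above 0 in EOW against SD, with a median of 0.03 against −0.03 over all probes. The count in 2WM against SD was also 5 of 10, with a median of 0.02 against −0.03, and in EOW against 2WM 2 of 10 with a median of −0.06 against 0.0029.

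**Figure D2:**
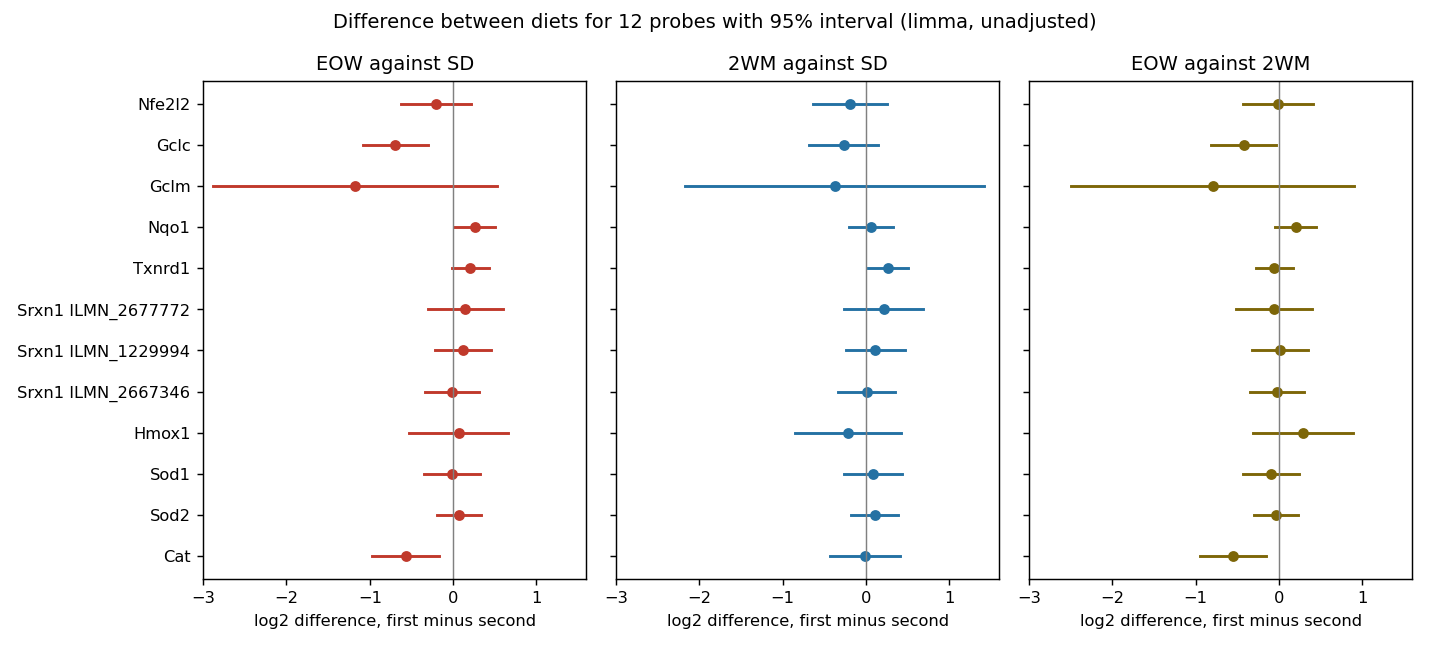
Log2 difference of each of the 12 probes in EOW against SD, 2WM against SD and EOW against 2WM (points), with limma's 95% interval before adjustment (lines). The intervals of Gclc and Cat lay below 0 in EOW against SD and in EOW against 2WM, and the wide intervals of Gclm include EOW mouse 4.

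Catalase, which turns hydrogen peroxide into water and oxygen in peroxisomes, had the clearest separation of mice. Its level in SD mice 1 to 4 was 5.03, 4.99, 5.41 and 4.97. In EOW mice 1 to 5 it was 4.63, 4.77, 4.52, 4.07 and 4.67, and in 2WM mice 1 to 4 it was 5.17, 4.52, 5.37 and 5.27. All 5 EOW mice were below all 4 SD mice, while 3 of the 4 2WM mice lay within the SD range and 2WM mouse 2 lay among the EOW mice. The signals before scaling ran from 8100 to 14522 in SD, from 3356 to 6368 in EOW and from 7204 to 10010 in 2WM. Repeat arrays of mouse 1 differed for Cat by 0.32 in SD, 0.02 in EOW and 0.04 in 2WM. The SD value is wider than the gap between the lowest SD mouse, 4.97, and the highest EOW mouse, 4.77. The group means were 5.10 ± 0.21 (n = 4), 4.53 ± 0.28 (n = 5) and 5.08 ± 0.38 (n = 4).

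Cat was thus 1.49-fold lower in EOW than in SD, a log2 difference of −0.57 (standard error 0.18, 95% interval −0.97 to −0.17, limma adjusted p = 0.234). The exact permutation p of 0.0159 was the smallest this design allows, and Cat was the 1 probe of 12 whose mice did not overlap downward, against 2.4% of all probes, whereas none of 12 did so upward, against 1.75%. EOW lay below 2WM by a similar amount, −0.55 (standard error 0.18, limma p = 0.0104, adjusted p = 0.322, exact permutation p = 0.0635), with no gap between the mice. The difference of Cat in 2WM against SD was −0.02 with a 95% interval of −0.44 to 0.40, and −0.33 (limma adjusted p = 0.486) with arrays centred on their medians. Over 20 alternative settings the difference between EOW and SD ranged from −0.81 to −0.45, and it was −0.45 (adjusted p = 0.285) without EOW mouse 4. The unadjusted p was under 0.05 in 20 of 20 of them, and the adjusted p ranged from 0.0957 to 0.572.

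Among marker genes, 3 of 6 detected stellate cell genes were higher in EOW than in SD at an unadjusted limma p under 0.05, against 5.59% of all probes, and 1 of 6 without EOW mouse 4, against 5.64%. By the same rule 1 of 6 hepatocyte and 1 of 7 sinusoidal endothelial genes were higher and 1 of 3 erythroid genes was lower (against 8.25%), with none called among T and NK, B and plasma, Kupffer, neutrophil and cholangiocyte markers. Without EOW mouse 4 the higher genes were 2 of 6 hepatocyte, 1 of 7 sinusoidal endothelial and 1 of 2 B and plasma markers. In that fit 1 of 3 erythroid genes was lower (against 8.37%), and the T and NK, Kupffer, neutrophil and cholangiocyte markers again had none. The summed stellate cell markers, with 6 of 7 detected and Col1a1 not, were 42.2 to 64.0 in SD, 62.2 to 107 in EOW and 60.1 to 72.2 in 2WM. Summed erythroid markers, with 3 of 6 detected and Slc4a1 not, were 14.1 to 21.1 in SD, 2.92 to 33.2 in EOW and 6.14 to 13.8 in 2WM. The highest stellate and erythroid sums, 107 and 33.2, were those of EOW mouse 4. The part of these cells in the Cat difference was not tested.

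Sod1, the cytosolic copper and zinc superoxide dismutase, and Sod2, its manganese counterpart in mitochondria, make the hydrogen peroxide that catalase removes. Sod1 ran from 6.00 to 6.43 in SD, from 5.90 to 6.60 in EOW and from 5.99 to 6.49 in 2WM. Sod2 ran from 5.03 to 5.15 in SD, from 4.91 to 5.47 in EOW and from 5.07 to 5.43 in 2WM. The ranges overlapped in each comparison. For Sod1 the difference was −0.01 in EOW against SD (95% interval −0.35 to 0.32, limma adjusted p = 0.976) and 0.08 in 2WM against SD (−0.27 to 0.43, adjusted p = 0.989). For Sod2 it was 0.07 (−0.20 to 0.33, adjusted p = 0.816) and 0.10 (−0.18 to 0.38, adjusted p = 0.968). These signs depend on the scaling. With arrays centred on their medians Sod1 was at −0.30 in EOW (adjusted p = 0.23) and −0.29 in 2WM (adjusted p = 0.386) against SD, both with an unadjusted p under 0.05, and Sod2 at −0.17 and −0.20. Without EOW mouse 4 the difference between EOW and SD was 0.07 for Sod1 and 0.13 for Sod2.

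Glutathione is made in steps, the first of which is catalysed by glutamate-cysteine ligase, an enzyme of the catalytic subunit Gclc and the modifier subunit Gclm. Gclc was at 1.00, 0.65, 0.92 and 0.41 in SD mice 1 to 4. It was at −0.01, 0.11, 0.52, −0.08 and −0.28 in EOW mice 1 to 5, and at 0.10, 0.81, 0.44 and 0.55 in 2WM mice 1 to 4. In 4 of 5 EOW mice Gclc was below every SD mouse, and EOW mouse 3 lay above the lowest of them, SD mouse 4. The 2WM mice covered most of the span between the other groups. Repeat arrays of mouse 1 differed for Gclc by 0.43 in SD, 0.13 in EOW and 0.20 in 2WM. The means were 0.75 ± 0.27 in SD (n = 4), 0.05 ± 0.30 in EOW (n = 5) and 0.48 ± 0.29 in 2WM (n = 4).

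The Gclc difference between EOW and SD was −0.69, or 1.62-fold lower (standard error 0.18, 95% interval −1.08 to −0.30, limma p = 0.00207, adjusted p = 0.178, exact permutation p = 0.0317). Over the 20 alternatives it ranged from −1.07, with the background correction of neqc, to −0.61, with the unadjusted p under 0.05 in 20 of 20 and the adjusted p between 0.096 and 0.492. Gclc of 2WM differed from SD by −0.27 (95% interval −0.68 to 0.14, adjusted p = 0.908), and −0.14 without 2WM mouse 1. The difference between EOW and 2WM was −0.42, or 1.34-fold lower (limma p = 0.0352, adjusted p = 0.433, exact permutation p = 0.0794), and this unadjusted p was under 0.05 in 12 of 20 alternatives. It was not without EOW mouse 4, where the difference was −0.39 (adjusted p = 0.471), nor with arrays centred on their medians, where it was −0.40 (adjusted p = 0.565). In the F test over the 3 diets Gclc had F = 7.65 (limma adjusted p = 0.269) and Cat F = 6.42 (adjusted p = 0.304).

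Gclm had 1 mouse far from all others. It was at 3.51, 3.12, 3.52 and 3.15 in SD mice 1 to 4 and at 2.60, 3.07, 3.00 and 3.12 in 2WM mice 1 to 4. In EOW mice 1, 2, 3 and 5 it was at 3.18, 2.92, 3.24 and 2.95, and in EOW mouse 4 at −1.55. The probe gave a signal of 73.1 in that mouse, where it was not detected (detection p-value 1), against 1494 to 3869 in the other 12 mice. The level of −1.55 lies below the background of that array, −1.02, and does not measure how much Gclm the mouse had. With all mice the difference between EOW and SD was −1.18 (standard error 0.79, limma adjusted p = 0.514), a value that includes the reading below background. Without EOW mouse 4 the difference was −0.25 (standard error 0.14, adjusted p = 0.438). Against 2WM the EOW difference was −0.80 with that mouse and 0.13 without it, so that the direction turned.

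In 2WM all 4 mice had less Gclm than the 4 SD mice, although the highest 2WM and the lowest SD mouse differed by 6.19e-05. The difference was −0.38, with a 95% interval of −2.17 to 1.41 that includes the spread from EOW mouse 4 (limma adjusted p = 0.993). Without that mouse the same difference of −0.38 had a standard error of 0.14 (adjusted p = 0.5) and met the unadjusted rule. The exact permutation p was 0.0286. Gclm and Nfe2l2 were the 2 of 12 probes whose 2WM mice lay wholly below the SD mice, against 3.66% of all probes, and none lay wholly above, against 2.16%. Between EOW and 2WM none of 12 was wholly below, against 1.97%, or wholly above, against 1.99%.

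Nfe2l2 encodes NRF2 itself. In SD mice 1 to 4 it was at 1.01, 1.27, 1.02 and 1.01, and in 2WM mice 1 to 4 at 0.95, 0.80, 0.81 and 0.98. The EOW mice 1 to 5 were at 0.52, 1.21, 0.77, 1.51 and 0.35, spread over more than the whole range of the other groups. EOW mouse 4 was the highest of the 13 mice and EOW mouse 5 the lowest. The other Nfe2l2 probe on the array was detected on none of the 16 arrays and gives no further reading.

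In EOW against SD the Nfe2l2 difference was −0.21 (95% interval −0.63 to 0.22, limma adjusted p = 0.646, exact permutation p = 0.397), −0.36 without EOW mouse 4 (p = 0.0346, adjusted p = 0.321) and −0.08 without EOW mouse 5. Against SD the 2WM difference was −0.19 (95% interval −0.64 to 0.26, adjusted p = 0.961, exact permutation p = 0.0286), where the highest 2WM mouse lay 0.03 below the lowest SD mouse. It was −0.13 without SD mouse 2. Between EOW and 2WM it was −0.01 (95% interval −0.44 to 0.41), and −0.17 without EOW mouse 4.

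Nqo1 reduces quinones by 2 electrons at a time and is a standard readout of NRF2 activity. It was at −0.26, −0.06, −0.31 and −0.24 in SD mice 1 to 4, at −0.05, 0.04, −0.30, 0.25 and 0.27 in EOW mice 1 to 5 and at −0.07, −0.15, −0.18 and −0.24 in 2WM mice 1 to 4. In 4 of 5 EOW mice it was above every SD mouse, EOW mice 4 and 5 being the highest, while EOW mouse 3 was among the lowest of all. The difference between EOW and SD was 0.26 (95% interval 0.01 to 0.51, limma p = 0.0405, adjusted p = 0.337, exact permutation p = 0.0952), and 0.21 without EOW mouse 4 (p = 0.0879). With neqc it was 0.55, and the unadjusted p was under 0.05 in 10 of 20 alternatives, not among them median centring and the fit without EOW mouse 4. It was 0.06 in 2WM against SD (95% interval −0.20 to 0.32) and 0.20 in EOW against 2WM (−0.05 to 0.45, adjusted p = 0.556). The other Nqo1 probe was detected on none of the 16 arrays.

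Txnrd1, the cytosolic thioredoxin reductase, returns oxidised thioredoxin to its active form with electrons of NADPH. Its level was −0.24, −0.46, −0.45 and −0.24 in SD mice 1 to 4 and −0.36, −0.03, 0.02 and 0.02 in 2WM mice 1 to 4. In EOW mice 1 to 5 it was −0.21, −0.29, −0.09, −0.15 and 0.02. Both metformin groups had most mice above the SD mice, 3 of 4 in 2WM and 4 of 5 in EOW, and 2WM mouse 1 and EOW mouse 2 lay inside the SD range. The difference was 0.26 in 2WM against SD (95% interval 0.03 to 0.50, limma p = 0.0309, adjusted p = 0.807, exact permutation p = 0.0857) and 0.20 in EOW against SD (−0.02 to 0.43, p = 0.0686, adjusted p = 0.395, exact permutation p = 0.0635). The unadjusted p in 2WM was under 0.05 in 14 of 20 alternatives, not among them median centring, and with neqc the differences were 0.61 and 0.52. The 2 metformin groups differed by −0.06 (−0.28 to 0.16).

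Srxn1, sulfiredoxin, repairs overoxidised peroxiredoxins and had 3 detected probes. Its brightest probe ran from 1.04 to 1.49 in SD, from 0.79 to 1.90 in EOW and from 1.23 to 1.87 in 2WM. The ranges overlapped, with the lowest and the highest mouse both in EOW. In EOW against SD the 3 probes gave 0.15, −0.02 and 0.12, with limma adjusted p of 0.762, 0.964 and 0.739, and without EOW mouse 4 they gave 0.02, −0.04 and 0.05. The same probes gave in 2WM against SD 0.21, 0.0049 and 0.11, with adjusted p of 0.960, 0.999 and 0.972. The probes thus disagreed in direction in EOW, by differences smaller than their standard errors of 0.15 to 0.21. The widest disagreement between repeat arrays of 1 mouse, 0.87, was that of the dimmest Srxn1 probe in SD mouse 1.

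Hmox1 opens the heme ring and is made in Kupffer cells, the macrophages of the liver, as well as in hepatocytes. It was at 0.55, 0.25, −0.09 and −0.18 in SD mice 1 to 4, at 0.02, 0.41, −0.19, 1.14 and −0.37 in EOW mice 1 to 5 and at 0.06, 0.29, −0.23 and −0.44 in 2WM mice 1 to 4. EOW mouse 4 was the highest of all mice and the groups overlapped. The difference was 0.07 in EOW against SD (95% interval −0.53 to 0.66, limma adjusted p = 0.931), −0.17 without EOW mouse 4, and −0.22 in 2WM against SD (−0.85 to 0.41, adjusted p = 0.971). The mice with the highest Hmox1, EOW mouse 4 and SD mouse 1, also had the highest summed Kupffer cell markers, 104 and 122. Over the groups that sum, with 9 of 13 listed markers detected and Cd5l not, was 41.9 to 122 in SD, 32.6 to 104 in EOW and 56.7 to 87.2 in 2WM. Of the single markers, Vsig4, Timd4, Adgre1 and C1qa were highest in SD mouse 1, and C1qb and C1qc in EOW mouse 4. Clec4f was highest in SD mouse 2, Marco in 2WM mouse 1 and Cd163 in EOW mouse 1. EOW mouse 4 also had the highest T and NK, neutrophil, stellate and erythroid sums. The part of Kupffer cells in the level of Hmox1 was not tested.

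**Figure D3:**
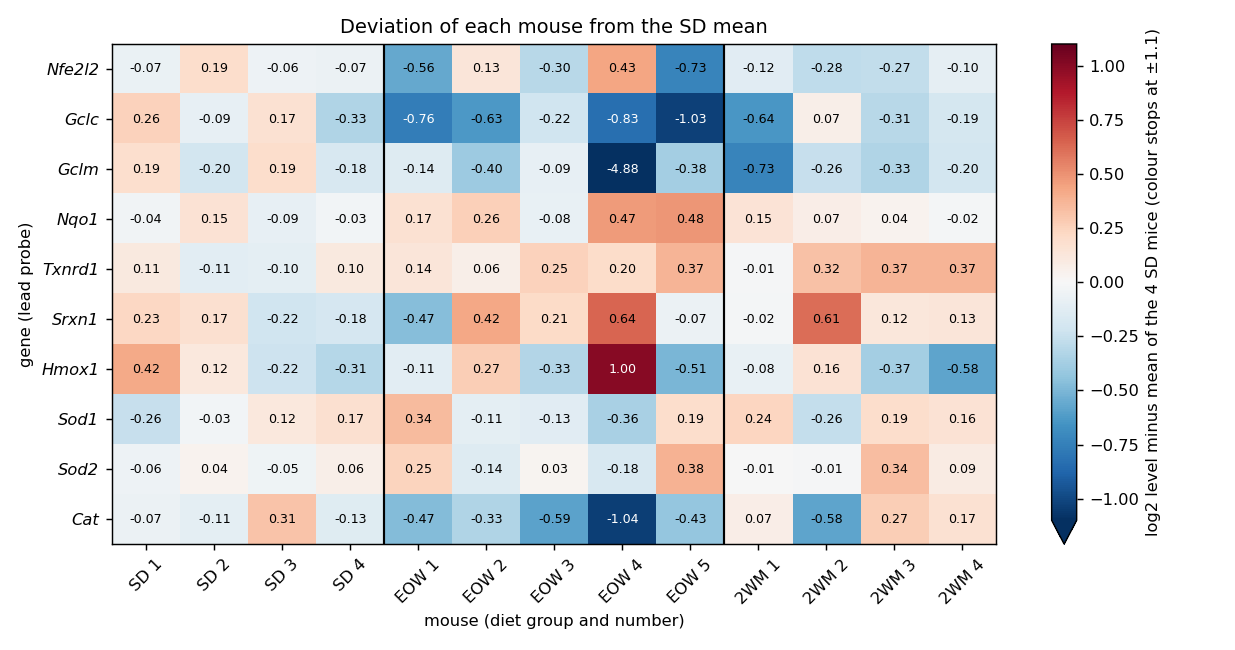
Level of each of the 10 genes in each of the 13 mice minus the mean of the 4 SD mice (log2, colour and printed value, colour stopping at 1.1 in either direction). The EOW columns hold the strongest colours, with −4.88 for Gclm (from a reading below background), 1.00 for Hmox1 and −1.04 for Cat in EOW mouse 4 and −1.03 for Gclc and −0.73 for Nfe2l2 in EOW mouse 5.

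The genes also differed in how evenly they were set among mice on 1 diet. The standard deviation within groups ran from 0.14 for Txnrd1 to 1.32 for Gclm over the 12 probes, with a median of 0.26, and that of Gclm was 0.21 without EOW mouse 4. Many of the extremes lay in the EOW group, which was the largest and in which EOW mouse 4 stood apart over all probes. How often the EOW mice were extreme over all probes was not computed. EOW mouse 4 was the lowest of the 13 mice for Gclm, Sod1, Sod2 and Cat and the highest for Nfe2l2, Hmox1 and Srxn1. EOW mouse 5 was the lowest for Nfe2l2 and Gclc and the highest for Nqo1, Txnrd1 and Sod2. Repeat arrays of the same mouse differed by 0.02 to 0.87, with a median of 0.13 over 36 values.

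Around these genes, 6 lists of related genes were read by the brightest detected probe of each gene. None of their genes passed an adjusted p under 0.05, so the counts that follow are at an unadjusted limma p under 0.05 and stand beside the same shares of all probes given above. Crebbp, Gsr, Ggt1, Prdx5, Prdx6, G6pdx, Pgd, Abcc4 and Htatip2 had no probe under these symbols and were not read. Genes named by rule had the smallest limma p of their list. Their lack of overlap and their permutation p are not independent of that choice and add no further support. Among regulators of NRF2, 9 of 12 listed genes were detected. In EOW against SD 0 of 9 met the rule. Rbx1, the RING subunit of the KEAP1 ubiquitin ligase, was higher in 2WM than in SD by 0.30 (adjusted p = 0.759), but by 0.03 with arrays centred on their medians. Bach1, a repressor that competes with NRF2 at its elements, and Gsk3b, a kinase that marks NRF2 for degradation, were lower in 2WM, with differences of −0.63 (adjusted p = 0.779) and −0.30 (adjusted p = 0.83), or −0.39 without SD mouse 4 and −0.15 without SD mouse 3.

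Bach1 was the regulator with the widest gap between the metformin groups. It lay between 0.18 and 0.53 in the 2WM mice, between 0.78 and 1.86 in the EOW mice and between 0.73 and 1.75 in the SD mice. The 4 2WM mice were below all others, where 3.66% of all probes had 2WM wholly below SD and 1.99% had EOW wholly above 2WM. The difference of EOW against 2WM was 0.77 (limma p = 0.00656, adjusted p = 0.288, exact permutation p = 0.0159). Keap1 differed by −0.25 in EOW (adjusted p = 0.513) and −0.17 in 2WM (adjusted p = 0.958) from SD.

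Of 9 genes of glutathione synthesis and recycling 6 were detected. Glrx, glutaredoxin, was the gene that met the rule, at 0.42 in EOW against SD (adjusted p = 0.313) and 0.53 in EOW against 2WM (adjusted p = 0.312). It ran from 3.26 to 4.34 in EOW, from 3.30 to 3.55 in SD and from 3.13 to 3.44 in 2WM, and the lowest EOW mouse lay below the SD mice. With arrays centred on their medians Glrx was at 0.24 in EOW against SD.

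Among 24 peroxidases, peroxiredoxins and thioredoxins, 20 were detected and 4 were higher in EOW than in SD, with none lower. Sesn1, sestrin 1, was at 1.62 to 2.09 in EOW and at 0.96 to 1.59 in SD, with no overlap, as in 1.75% of all probes. The difference was 0.68 (limma p = 0.00151, adjusted p = 0.17, exact permutation p = 0.0159). Gpx3, the secreted glutathione peroxidase, was at 1.11 to 2.23 in EOW, at 0.37 to 1.26 in SD and at 0.46 to 1.08 in 2WM, with a difference of 0.87 from SD (adjusted p = 0.205) and 0.87 from 2WM (adjusted p = 0.273). Gpx7, a peroxidase of the endoplasmic reticulum, differed by 0.35 (adjusted p = 0.22), with no overlap between EOW and SD mice, and by 0.97 with neqc. Its levels were low, at −0.70 to −0.53 in SD and −0.46 to 0.07 in EOW, where background lay between −1.03 and −0.93. The fourth was Txnip, which binds thioredoxin, at 0.70 (adjusted p = 0.223), named here after its value was seen. Against 2WM the same 4 genes were higher in EOW and Txn1 was lower.

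Txn1, thioredoxin, the substrate of Txnrd1, had its higher values in 2WM. The 2WM mice lay between 2.68 and 2.89, the SD mice between 2.07 and 2.53 and the EOW mice between 1.97 and 2.54. No 2WM mouse overlapped with the other groups, where 2.16% of all probes had 2WM wholly above SD and 1.97% had EOW wholly below 2WM. The difference was 0.49 in 2WM against SD (limma p = 0.00261, adjusted p = 0.507, exact permutation p = 0.0286) and −0.43 in EOW against 2WM (p = 0.00443, adjusted p = 0.273, exact permutation p = 0.0159). It was the 1 gene of the 20 to meet the rule in 2WM against SD, where it was at 0.32 with arrays centred on their medians.

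NADPH pays for the reduction of glutathione and thioredoxin, and 5 of 7 genes listed around its supply were detected. These were Tkt, Taldo1, Me1, Idh1 and Idh2, not all of which make NADPH themselves. G6pdx and Pgd had no probe under these symbols. Idh2, the mitochondrial isocitrate dehydrogenase, was higher in both metformin groups than in SD, by 0.64 in EOW (adjusted p = 0.215) and 0.59 in 2WM (adjusted p = 0.708), the latter 0.38 with arrays centred on their medians. It ran from 2.80 to 3.41 in SD, from 3.18 to 4.11 in EOW and from 3.46 to 3.92 in 2WM. Between the metformin groups 3 of the 5 genes were lower in EOW, namely the cytosolic Idh1 with −0.52 (adjusted p = 0.312), malic enzyme Me1 with −0.80 (adjusted p = 0.388) and transaldolase Taldo1 with −0.28 (adjusted p = 0.363). The median of the 5 was −0.29 in EOW against SD, 0.23 in 2WM against SD and −0.52 in EOW against 2WM.

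Of 28 glutathione transferases and other detoxification genes linked to NRF2, 23 were detected, and 4 were lower and 1 higher in EOW than in SD. The lower ones by the rule were Gstm6, a glutathione transferase of the mu class, with −0.76 (adjusted p = 0.238), Entpd5, a nucleotidase of the endoplasmic reticulum, with −0.60 (adjusted p = 0.195), and Aox1, aldehyde oxidase, with −0.19 (adjusted p = 0.313), or −0.60 with neqc. Aox1 was near background, at −0.61 to −0.46 in SD and −0.80 to −0.67 in EOW. Gstp1 with −0.66 (adjusted p = 0.349) and Cbr3 with 0.34 (adjusted p = 0.337) are named after their values were seen. In EOW against 2WM Gstm6 with −0.86 (adjusted p = 0.278), Entpd5 with −0.42 (adjusted p = 0.391), Gstm4 with −0.31 (adjusted p = 0.364) and Gstp1 with −0.68 (adjusted p = 0.441) were lower. None of the 23 met the rule in 2WM against SD, where their median was 0.07 against −0.06 in EOW against SD. Of 6 genes of heme breakdown and iron storage 5 were detected, and none met the rule in any comparison, the ferritin heavy chain Fth1 being at 0.28 in both EOW (adjusted p = 0.499) and 2WM (adjusted p = 0.899) against SD.

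Without EOW mouse 4 some of these counts had other members, with the shares of all probes as given for that fit. In EOW against SD Keap1 was the 1 of 9 regulators lower, Gpx1 joined the 4 peroxidase and thioredoxin genes that were higher, and Fth1 was the 1 of 5 genes of heme breakdown and iron storage that was higher. The detoxification genes again had 4 lower and 1 higher, with Ephx1 in place of Aox1 and Cyp2a5 in place of Cbr3. Between EOW and 2WM Sqstm1 and Nfe2l1 joined the regulators as lower, Gpx3, Sesn1 and Txn2 were the 3 peroxidase and thioredoxin genes that were higher, and Gstm4, Gstm6 and Gstp1 were the 3 detoxification genes that were lower, with Cbr1 higher. The counts in 2WM against SD, and those of the glutathione and NADPH lists, were the same with and without that mouse. Genes outside the naming rule are named here after their values were seen.

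**Figure D4:**
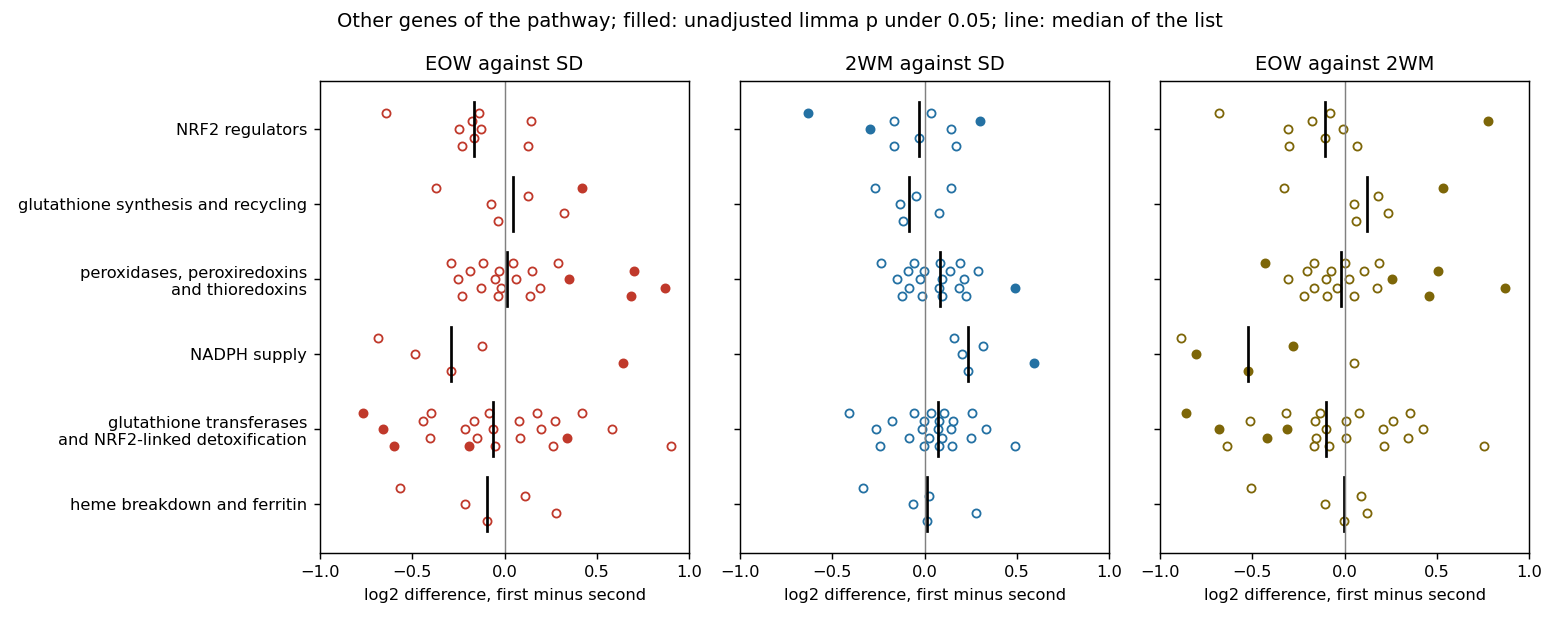
Log2 difference of every detected gene of the 6 related lists in EOW against SD, 2WM against SD and EOW against 2WM, 1 point per gene, filled where the unadjusted limma p was under 0.05, with the median of the list as a line. The median of the NADPH list lay at −0.29 in EOW and 0.23 in 2WM against SD, and each of the other lists had genes on both sides of 0.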

How the data were processed

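Total RNA from 13 mouse livers was hybridised to 16 Illumina arrays. The deposited table held, per array, the authors' probe signal as intensity without normalization and a detection p-value, which the submitters' processing notes credit to GenomeStudio 2011.1. The authors also deposited a Z score table, which equalled the Z score of the log2 signal within each array to 0.00011 and was used as a check. All columns of per-sample values were used.

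The log2 signal was turned into a Z score within its array (the scaling of the study's methods) and put back on a log2 scale through the average array's standard deviation. Arrays of a mouse were averaged. The 11143 probes that some group had detected (p below 0.05) on all its arrays were fitted with limma 3.58.1 in R 4.3.3, with 3 groups and 10 residual degrees of freedom, and adjusted by Benjamini-Hochberg. Group sizes follow the labels. A legend of the study gives fewer EOW mice than the labels do, and which mouse it leaves out is not given in the sources used here. The fitting step was tested on simulated data. The number of arrays limits the precision, and nothing but the labels shows that mice are independent. The members and lists were chosen with earlier results of these data known. Every detected probe of the 10 genes was named, with the brightest leading, and from each related list up to 3 genes per comparison with the smallest unadjusted p under 0.05. The alternatives were quantile normalization, median centring, neqc with an offset of 16, no filter, a filter at p under 0.01, the first array of each mouse, the replicate number as a block, leaving out each mouse, unadjusted p and the methods' criteria.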

Additional observations from a re-analysis of the deposited data

Results flagged for a closer look

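Within each diet group the lowest or highest mouse was set against its nearest neighbour, as the gap divided by the range of the group (Dixon's ratio at the 95% level). Of 84 groups 10 passed, 6 of them for probes of the 10 genes, and chance passes about 1 in 20 groups. For Nfe2l2 SD mouse 2 was at 1.27 with the nearest SD mouse at 1.02 (ratio 0.946). For Gclm EOW mouse 4 was at −1.55 with the nearest at 2.92 (0.934). For Txnrd1 2WM mouse 1 was at −0.36 with the nearest at −0.03 (0.864). For the Srxn1 probe ILMN_2667346 SD mouse 2 was at 0.72 with the nearest at 0.18 (0.954). For Sod1 2WM mouse 2 was at 5.99 with the nearest at 6.41 (0.843), and for Cat SD mouse 3 was at 5.41 with the nearest at 5.03 (0.854). Among the related genes the ratio was 0.839 for Bach1 in SD mouse 4, 0.895 for Glrx in SD mouse 1, 0.898 for Idh1 in SD mouse 3 and 0.857 for Gstm4 in SD mouse 3.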

How the results depend on the processing

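Of 60 differences of single probes 46 kept their direction in all 20 settings, and 14, all of probes of the 10 genes, turned in at least 1. The related genes among the 60 had been picked for an unadjusted p under 0.05 in the same fit. That choice made a turn unlikely, so they cannot be set against the 10 genes in this respect. No probe passed an adjusted p under 0.05 in the reported fit. In EOW against SD the count was 5 with median centring, 1 with neqc, 1 with the replicate block, 1542 at an unadjusted p, 352 by the methods' criteria and 0 to 6 on leaving out 1 mouse (6 without EOW mouse 2). It was, in 2WM against SD, 2 with neqc, 2 with the first array of each mouse, 1 with the replicate block, 661 unadjusted, 289 by the methods' criteria and 0 to 5 on leaving out 1 mouse (5 without EOW mouse 4). In EOW against 2WM it was 1188 unadjusted, 308 by the methods' criteria and 0 to 3 on leaving out 1 mouse, and over the 3 diets 1 with the replicate block and 0 to 6. Of the 12 probes, 3 met the unadjusted rule in EOW against SD and 2 to 4 on leaving out 1 mouse. The count was 1 in 2WM against SD, and 0 to 2 on leaving out 1 mouse. In EOW against 2WM 2 did, 1 with median centring, 1 with the replicate block and 1 to 3 on leaving out 1 mouse. Same-numbered mice deviated together with correlations of −0.38 to 0.33, which varied in sign. The labels give no pairing, and with so few mice these correlations cannot exclude one.

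Directions turned in EOW against SD for Srxn1 (ILMN_2667346; quantile 0.0074, neqc 0.021) and Sod2 (median centring −0.17, replicate block −0.0095). They turned in 2WM against SD for the same Srxn1 probe (median centring −0.057, first array −0.021), Sod1 (quantile −0.093, median centring −0.29, neqc −0.092), Sod2 (median centring −0.20) and Cat (first array 0.018). They turned in EOW against 2WM for Nfe2l2 (median centring 0.017, first array 0.0035, replicate block 0.12), Srxn1 ILMN_2667346 (median centring 5.3e-05), Srxn1 ILMN_1229994 (neqc −0.033, replicate block −0.0155) and Sod2 (quantile 0.025, median centring 0.030, neqc 0.025). Leaving out 1 mouse gave, in EOW against SD, −0.17 to 0.21 for Hmox1, −0.093 to 0.12 for Srxn1 ILMN_2667346, −0.10 to 0.074 for Sod1 and −0.0095 to 0.13 for Sod2. It gave in 2WM against SD −0.076 to 0.14 for Srxn1 ILMN_2667346, −0.0039 to 0.20 for Sod1 and −0.11 to 0.17 for Cat. It gave in EOW against 2WM −0.17 to 0.12 for Nfe2l2, −1.07 to 0.13 for Gclm, −0.18 to 0.094, −0.10 to 0.062 and −0.058 to 0.13 for Srxn1 ILMN_2677772, ILMN_2667346 and ILMN_1229994, and −0.11 to 0.046 for Sod2. Median centring moved the median of all probes to −0.09, −0.12 and 0.03 in the 3 comparisons, from −0.03, −0.03 and 0.0029. Causes were not tested.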
